A study of Mus musculus with 8 samples.

Results

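Cells sorted for a Gcg reporter were compared after 24 h of BMP4 and without BMP4, within 2 plates of single cells. The cells came from intestinal organoids of C57BL/6 mice with the genotype given as Gcg reporter (sample names Gcg-Venus 1 and 2), and live reporter-positive cells were sorted into 384-well plates. On each plate the untreated cells occupied columns 1 to 6, the 24 h cells columns 7 to 12 and cells after 4 days of BMP4 columns 13 to 24, so treatment and position on the plate cannot be told apart. A well was kept when it held at least 2000 transcripts outside spike-in and mitochondrial rows, and 292 of 384 wells passed, 139 untreated and 153 at 24 h. The series holds 1006 kept cells among 3072 wells of 8 plates, including plates sorted from Tac1 and Gip reporter organoids (Tac1-Cre and Gip-Cre lines, same strain) with the same 3 conditions. The dose of BMP4 is not given in the sources used here. Nothing in the labels says that the 2 plates came from separate cultures or mice, and the p-values rest on 1 estimate of spread pooled over the 5 plates of all 3 lines that hold every condition, a spread which may be technical. The level of the Venus reporter itself was not analysed here.

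BMP4 is a secreted ligand that acts through type I and type II receptor kinases, which phosphorylate Smad1, Smad5 and Smad9. These enter the nucleus with Smad4 and switch on direct targets such as the Id genes and the inhibitory Smads. In the intestine BMP activity rises from crypt to villus tip. Cells that transcribe Gcg, called L cells, make the precursor of glucagon-like peptide 1, and other enteroendocrine cells make secretin (Sct), neurotensin (Nts), cholecystokinin (Cck), peptide YY (Pyy), gastric inhibitory polypeptide (Gip) or somatostatin (Sst).

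Nearly all kept cells held Gcg transcripts, although some held few. At 2000 transcripts per cell, at least 1 was present in 96.9% of untreated and 98.6% of 24 h cells on plate 1. On plate 2 it was present in 100% and 100%. On plate 1 at least 5 Gcg transcripts per 2000 were present in 71.9% of untreated and 68.1% of 24 h cells, and on plate 2 in 94.7% and 88%. Cells were also classed by their leading hormone among Gcg, Cck, Nts, Gip, Sst and Ghrl alone. Untreated cells without a leading hormone (20 on plate 1 and 9 on plate 2) had the endocrine factor Neurod1 at 64.6 and 74 CPM. Untreated Gcg-led cells had it at 1344 and 1699 CPM. The kept cells are therefore named by their reporter, and not all of them as enteroendocrine cells. Plate 1 contributed 64 untreated and 70 24 h cells, with 853721 and 768243 transcripts in their sums. Plate 2 contributed 75 and 83 cells, with 672686 and 1235951 transcripts. The median transcripts per cell were 9334 untreated and 8702 at 24 h on plate 1, but 6804 and 15426 on plate 2. The kept well with the fewest transcripts had 2023 and the left-out well with the most had 1870. Markers of enterocytes, the absorptive cells of the villus, made up 2.22% to 3.20% of all transcripts in the 4 sums, with all 17 of 17 members present. Those of goblet cells, the mucus-secreting cells, made up 0.21% to 1.32%. Paneth and tuft markers were at or below 0.01% in each sum, with Defa17, Sh2d6 and Il25 at 0. These 4 lists together exceeded 2% of transcripts in 38 of 64 untreated and 34 of 70 24 h cells of plate 1. On plate 2 they did so in 40 of 75 and 56 of 83 cells.

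Across 10733 genes tested, 10 were higher after 24 h (0.0932%) and 0 were lower (0%) at an adjusted p under 0.05 in edgeR's quasi-likelihood test, fitted to the transcript sums of each plate and condition. The 10 were Id1, Id2, Id3, Sct, Tbx3, Nt5e, Sstr1, Fam101a, Dnaja4 and Dlk1. An unadjusted p under 0.05 was reached by 127 genes that were higher and 66 that were lower, and DESeq2 called 10 higher and 1 lower. Of its 10 higher genes 9 were the same, with Sst in place of Fam101a. The median log2 change over all tested genes was 0.03. The count depends on the plates that enter the fit. Without Gcg plate 1 there were 4 higher genes, and without Gcg plate 2 there were 28 higher and 127 lower. Without Tac1-Cre 1 or Tac1-Cre 2, which inform only the estimate of spread, 5 were higher. With the 4 untreated and 24 h Gcg sums alone, no gene passed, with 112 higher and 70 lower at an unadjusted p under 0.05. Levels are transcripts of a gene per 1e6 transcripts of a sum (CPM), given for plate 1 and then plate 2. The share of all tested genes with both 24 h levels beyond both untreated levels was not counted. Where such separation is stated for a gene, it describes the values of that gene and is not a further test.

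**Figure D1:**
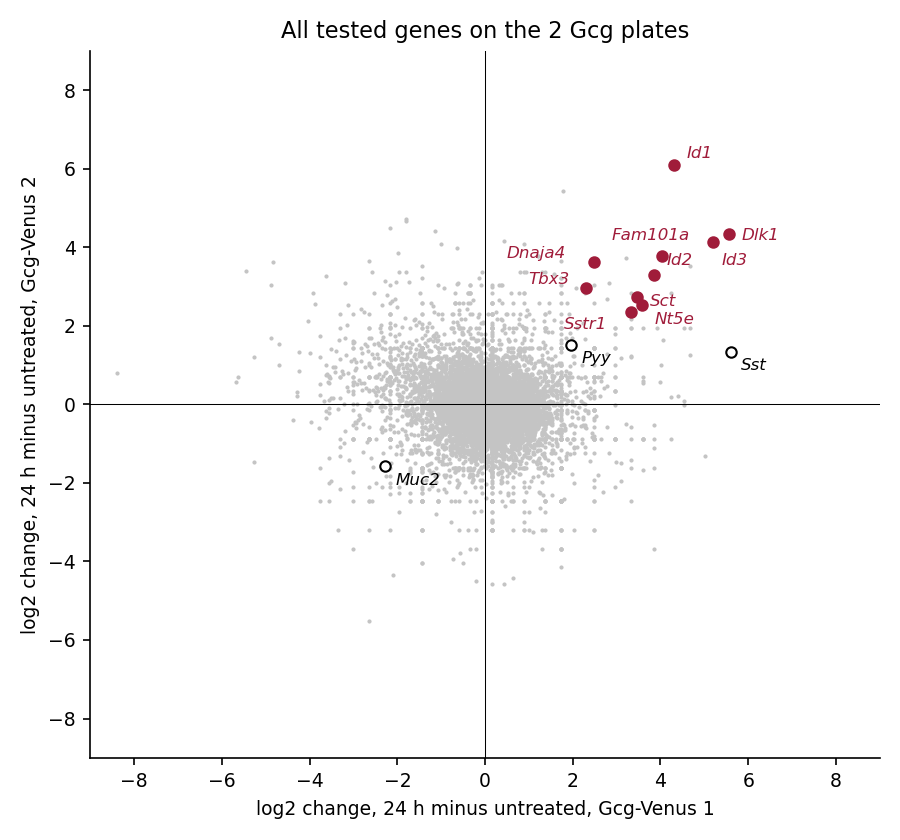
Log2 change from untreated to 24 h on Gcg plate 1 (x axis) against plate 2 (y axis) for each of 10733 tested genes; the 10 called genes are labelled in red, and Sst, Pyy and Muc2 are open symbols. The red points lie above 0 on both axes, away from the mass of genes around the origin.

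The Id genes, which encode inhibitors that pair with basic helix-loop-helix transcription factors and block their binding to DNA, rose together. Id2 (chr12:25093799-25097140, minus strand, mm10) was at 36.3 and 52 CPM in untreated cells and at 532 and 512 CPM at 24 h. Id3 (chr4:136143497-136145755, plus strand) was at 4.69 and 8.92 CPM untreated and at 193 and 168 CPM at 24 h. Id1 (chr2:152736251-152737410, plus strand) was at 5.86 and 1.49 CPM untreated and at 128 and 153 CPM at 24 h. In each of the 3 genes both 24 h sums lay far above both untreated sums. The log2 changes were 3.62 ± 0.35 (SE) for Id2, 4.76 ± 0.42 for Id3 and 5.15 ± 0.55 for Id1, with edgeR adjusted p of 0.00075, 0.00065 and 0.0016. The lowest untreated values rest on few reads: Id1 had 5 and 1 transcripts and Id3 had 4 and 6. All 3 passed the threshold when any 1 of the 5 plates was left out.

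The rise of the Id genes was spread over many cells. After each cell was thinned to 2000 transcripts, Id2 was detected in 10.9% of untreated and 53.6% of 24 h cells on plate 1, and in 8.0% and 43.4% on plate 2. Id3 was detected in 1.56% and 31.9% of cells on plate 1 and in 1.33% and 30.1% on plate 2. Id1 was detected in 1.56% and 21.7% on plate 1. On plate 2 it was found in 0 of 75 untreated cells, and in 21.7% of 24 h cells. By the limit of 3 counts of the total, 0 of 75 allows a share of up to 4.00% of cells with a counted transcript, and it says nothing of cells whose Id1 lies below detection at this depth. The 3 cells with the most Id2 transcripts held 19.6% and 16.2% of its 24 h total. No test of these shares is given, because 2 plates cannot reach an exact p below 0.5.

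Among the other BMP targets none passed the test by itself. Of 13 listed targets 10 were tested, 3 were called (the Id genes, against 0.0932% of all genes), and 9 of 10 were higher on both plates, as were 2295 of all 10733 genes. Their median log2 change was 2.86, or 2.31 with Smad9 at the bound that its untreated count of 0 allows, beside 0.03 for all genes. Smad7, an inhibitory Smad that blocks receptor signalling, had 3 and 2 transcripts untreated and 21 and 29 at 24 h, a log2 change of 2.92 ± 0.69 (edgeR adjusted p = 0.86). Smad6, the other inhibitory Smad, went from 2 and 1 transcripts to 9 and 21, with a log2 change of 2.80 ± 0.78. Smad9 was listed at 0 in both untreated sums and had 8 and 6 transcripts at 24 h, at least 3.55-fold higher against a floor of 3 counts over both plates. Skil, a repressor of Smad-driven transcription, had a log2 change of 1.13 ± 0.52, Msx1 of 1.5 ± 1.05 and Tgif1 of 0.39 ± 0.45. Bambi, a decoy receptor, stood at -0.16 ± 0.48. Atoh8, Id4 and Msx2 were too low to test. Of the 9 receptors and signalling Smads 8 were tested and 0 called, with a median of 0.07, and no difference was detectable at this depth, for example with Bmpr1a at 0.19 ± 0.37 and Smad1 at 0.10 ± 0.33.

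Sct, which encodes secretin, the hormone that stimulates bicarbonate release from the pancreas, was the most abundant gene to rise. Its level was 1519 and 2053 CPM in untreated cells and 16848 and 13555 CPM at 24 h. Both 24 h sums were above both untreated sums, and the fitted change was 8.90-fold (log2 3.15 ± 0.42, edgeR adjusted p = 0.011). The call was lost when Tac1-Cre 1 (adjusted p = 0.17) or Tac1-Cre 2 (adjusted p = 0.11) was left out, while the log2 change stayed between 2.82 and 3.48 in 18 alternative analyses, whose adjusted p ran from 1.1e-18 to 0.46. It was called in 12 of the 18. Besides those 2 omissions, the call was lost with a minimum of 5000 transcripts per cell and in each fit of the Gcg sums alone. Sct lies at chr7:141278330-141279133 on the minus strand (mm10, GENCODE M21). The 250 bases before its transcript start are shown because this was the hormone gene that passed the test, and because they hold a GGCGCC palindrome, a GC-rich sequence that BMP Smads can bind. The window is chr7:141279134-141279383, RefSeq GRCm38.p6, written 5′ to 3′ on the gene's strand with the palindrome in capitals.
Sct upstream window: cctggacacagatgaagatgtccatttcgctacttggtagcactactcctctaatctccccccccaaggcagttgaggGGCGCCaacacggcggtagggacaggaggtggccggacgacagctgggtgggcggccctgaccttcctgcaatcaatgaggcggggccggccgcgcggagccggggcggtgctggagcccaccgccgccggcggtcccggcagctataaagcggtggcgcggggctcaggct
GGCGCC, searched on both strands, occurs in 9.59% of 32851 RefSeq windows of this length. Of the 10 called genes 6 had a window in that table. Id2 and Sct each hold 1 match, as does 1 of the windows of Dnaja4, while Id3, Nt5e and Dlk1 hold none. A match is a description of the letters and not of binding.

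The change in Sct lay in the amount per cell more than in the share of cells with any Sct transcript. At 2000 transcripts per cell, 17 of 64 untreated cells of plate 1 had at least 5 Sct transcripts (26.6%, 95% Wilson interval 17.3% to 38.5%), against 54 of 69 at 24 h (78.3%, 67.2% to 86.4%). On plate 2 these were 20 of 75 (26.7%, 18% to 37.6%) and 45 of 83 (54.2%, 43.6% to 64.5%). The share was higher by 39.6 percentage points on average over the plates at this threshold, by 9.95 points with a threshold of 1 transcript, and by 17.8 points with at least 5 of 5000 transcripts. The median number among cells with any Sct went from 3 to 26.5 on plate 1 and from 3 to 22 on plate 2. At least 1 Sct transcript was also found in 44.1% of untreated Tac1-Cre 1 cells and 57.1% of untreated Gip-Cre 1 cells, where at least 5 were found in 0 of 68 and 1 of 63 cells. Intervals cover counting error only.

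**Figure D2:**
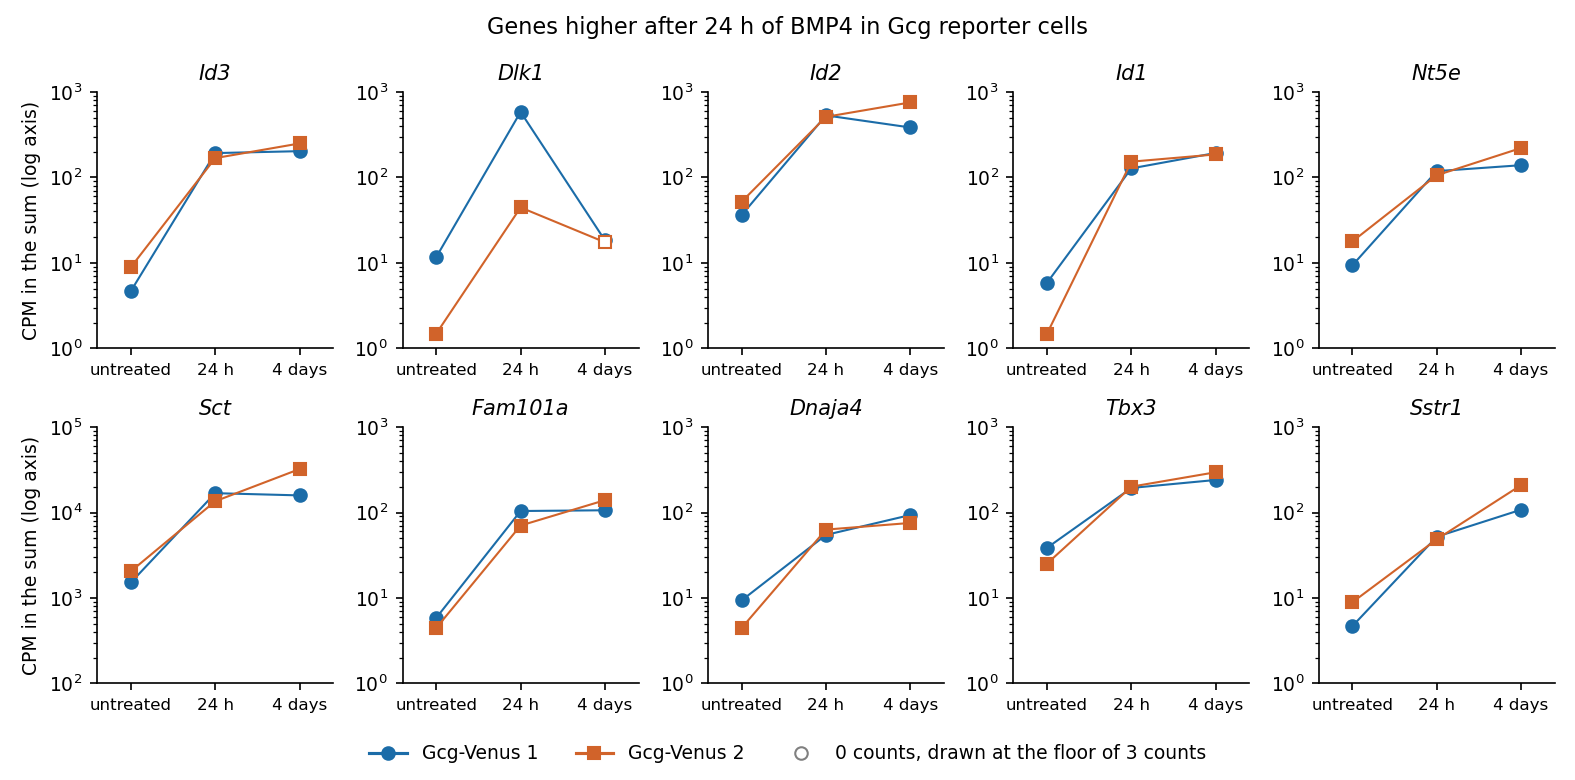
Levels in CPM (log axis) of the 10 called genes in untreated, 24 h and 4 day sums of the 2 Gcg plates; each point is 1 plate, and an open marker is a count of 0 drawn at the level of 3 counts. Sct lies highest, from 1519 and 2053 CPM untreated to 16848 and 13555 CPM at 24 h, and Dlk1 is the gene whose points return toward the untreated level at 4 days.

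Of the villus tip list 5 of 7 genes were tested and 2 rose, Nt5e and Tbx3 (against 0.0932% of all genes), while the list's median was 0.19. Nt5e encodes CD73, a surface enzyme that converts AMP to adenosine. Nt5e (chr9:88327197-88372092, plus strand) was at 9.37 and 17.8 CPM untreated and at 118 and 106 CPM at 24 h, a log2 change of 3.11 ± 0.40 (edgeR adjusted p = 0.0088). Tbx3, a T-box transcriptional repressor at chr5:119670669-119684724 on the plus strand, was at 38.7 and 25.3 CPM untreated and at 194 and 201 CPM at 24 h. Its log2 change was 2.64 ± 0.41 (adjusted p = 0.030). For both genes the 24 h sums did not overlap the untreated ones. Tbx3 was detected in 10.9% of untreated and 26.1% of 24 h cells of plate 1 and in 8.0% and 31.3% of plate 2, at 2000 transcripts per cell. Nt5e was more concentrated, with 53.9% and 39.7% of its 24 h transcripts in the top 3 cells of each plate. With each cell thinned to 2000 transcripts Tbx3 was called and Nt5e was not. Both calls were lost without Gcg plate 1 (adjusted p = 0.58 for Nt5e and 0.31 for Tbx3) or without either Tac1-Cre plate (0.051 to 0.12). The other members did not pass, for example Klf4, a transcription factor of differentiated epithelium, at 0.19 ± 0.66 and Egfr at -0.83 ± 0.52.

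Sstr1, a receptor for somatostatin, was the 1 gene called among 13 tested nutrient and hormone receptors of 21 listed (against 0.0932% of all genes), whose median was 0.33. It lies at chr12:58211772-58214444 on the plus strand. Sstr1 was at 4.69 and 8.92 CPM untreated, from 4 and 6 transcripts, and at 52.1 and 48.5 CPM at 24 h, from 40 and 60. The log2 change was 2.93 ± 0.46 (edgeR adjusted p = 0.030). Ffar2, a receptor for short-chain fatty acids, stood at -0.91 ± 0.40 and Trpa1, an irritant channel, at 1.58 ± 0.66, and neither passed. Fam101a, also named Rflna and encoding the filamin-binding protein refilin A (chr5:125003221-125012547, plus strand), was at 5.86 and 4.46 CPM untreated and at 104 and 70.4 CPM at 24 h. Its log2 change was 4.02 ± 0.52 (adjusted p = 0.011). Dnaja4, a co-chaperone of the Hsp40 family (chr9:54698873-54716315, plus strand), was at 9.37 and 4.46 CPM untreated and at 54.7 and 63.1 CPM at 24 h, with a log2 change of 3.08 ± 0.48 (adjusted p = 0.030). All 3 genes had higher levels in both 24 h sums than in either untreated sum. These sums pool cells of every leading hormone. With each cell thinned to 2000 transcripts, none of the 3 was called. None of the 3 passed without Gcg plate 1 (adjusted p = 1.0 for Sstr1, 0.91 for Fam101a and 0.41 for Dnaja4). Sstr1 also missed the threshold without Tac1-Cre 1 (0.17) or Tac1-Cre 2 (0.11), and Dnaja4 without any of the plates but Gip-Cre 1 (0.055 to 0.41).

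Dlk1 had the largest fitted rise of the 10 called genes, and almost all of it came from 3 cells. Dlk1 encodes a membrane protein related to Notch ligands and is expressed from the paternal allele. It lies at chr12:109452823-109463336 on the plus strand. Its level was 11.7 and 1.49 CPM untreated and 584 and 44.5 CPM at 24 h, a log2 change of 5.44 ± 0.48 (edgeR adjusted p = 0.00075). On plate 1 a single cell held 433 of the 449 Dlk1 transcripts, and on plate 2 a pair of cells held 52 of 55. In all 3 of these cells Gip was the highest of Gcg, Cck, Nts, Gip, Sst and Ghrl. Each plate had 8 cells led by Gip among these 6 hormones at 24 h, against 4 and 2 untreated, in which 1 and 0 Dlk1 transcripts were counted. The fit treats the sum of a plate as 1 value and does not see how many cells contribute to it. Without Gcg plate 1 the adjusted p was 0.36. The 250 bases before the start of Dlk1 are printed beside those of Sct (chr12:109452573-109452822, plus strand, RefSeq GRCm38.p6). These were the windows of called genes that lie outside every annotated transcript of their own gene. Overlap with transcripts of other genes was not checked. GTCTG and its reverse complement CAGAC, the short Smad-binding sequence, are in capitals.
Dlk1 upstream window: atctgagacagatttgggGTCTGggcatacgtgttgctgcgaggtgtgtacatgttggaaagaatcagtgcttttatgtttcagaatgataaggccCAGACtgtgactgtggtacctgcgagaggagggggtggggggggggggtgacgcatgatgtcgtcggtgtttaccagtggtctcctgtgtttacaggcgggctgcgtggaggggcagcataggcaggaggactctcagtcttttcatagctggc
Either form of this 5-base sequence is found in 42.2% of all RefSeq windows of this length, and it occurs 2 times in the windows of Dlk1, Id3 and Nt5e, 1 time in each of 2 windows of Dnaja4 and 0 times in those of Sct and Id2.

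Of 17 hormone genes 12 were tested and 1 rose, Sct (against 0.0932% of all genes), and the list's median was 0.31. Pyy was at 4062 and 5072 CPM untreated and at 15748 and 14507 CPM at 24 h, higher on both plates, with a log2 change of 1.78 ± 0.42 that did not pass (edgeR adjusted p = 0.86). Nts was at 13567 and 9186 CPM untreated and 18039 and 19482 CPM at 24 h (0.75 ± 0.44). Gcg, the gene of the reporter, was at 42919 and 77634 CPM untreated and 39075 and 31628 CPM at 24 h (-0.65 ± 0.43). Both 24 h levels of Gcg were below both untreated levels, with most of the difference on plate 2. Cck moved in opposite directions, from 20039 to 32301 CPM on plate 1 and from 30487 to 24700 CPM on plate 2 (0.18 ± 0.43).

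The remaining hormones rested on few cells or few transcripts. Gip went from 13759 and 4396 CPM to 24225 and 11713 CPM (1.12 ± 0.46), and 96.4% of its untreated total on plate 1 was in 3 cells. Sst, at 44.5 and 2827 CPM untreated and 2195 and 7152 CPM at 24 h, had a log2 change of 3.36 ± 0.81 (edgeR adjusted p = 0.86, DESeq2 adjusted p = 0.015). At 24 h 1654 of 1685 Sst transcripts of plate 1 were in 3 cells and 8375 of 8839 of plate 2 in 1 cell. Ghrl, which encodes ghrelin, went from 1912 and 1122 to 604 and 1050 CPM (-1.14 ± 0.70). Tac1, the precursor of substance P, had 21 and 20 transcripts untreated and 0 and 13 at 24 h (-2.24 ± 0.67, adjusted p = 1.0). Iapp, Ucn3 and Cartpt were near or below 100 CPM in most sums, with log2 changes of -0.03, -0.50 and 0.43. Gal, Insl5, Nmb, Ppy and Vip were too low to test.

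**Figure D3:**
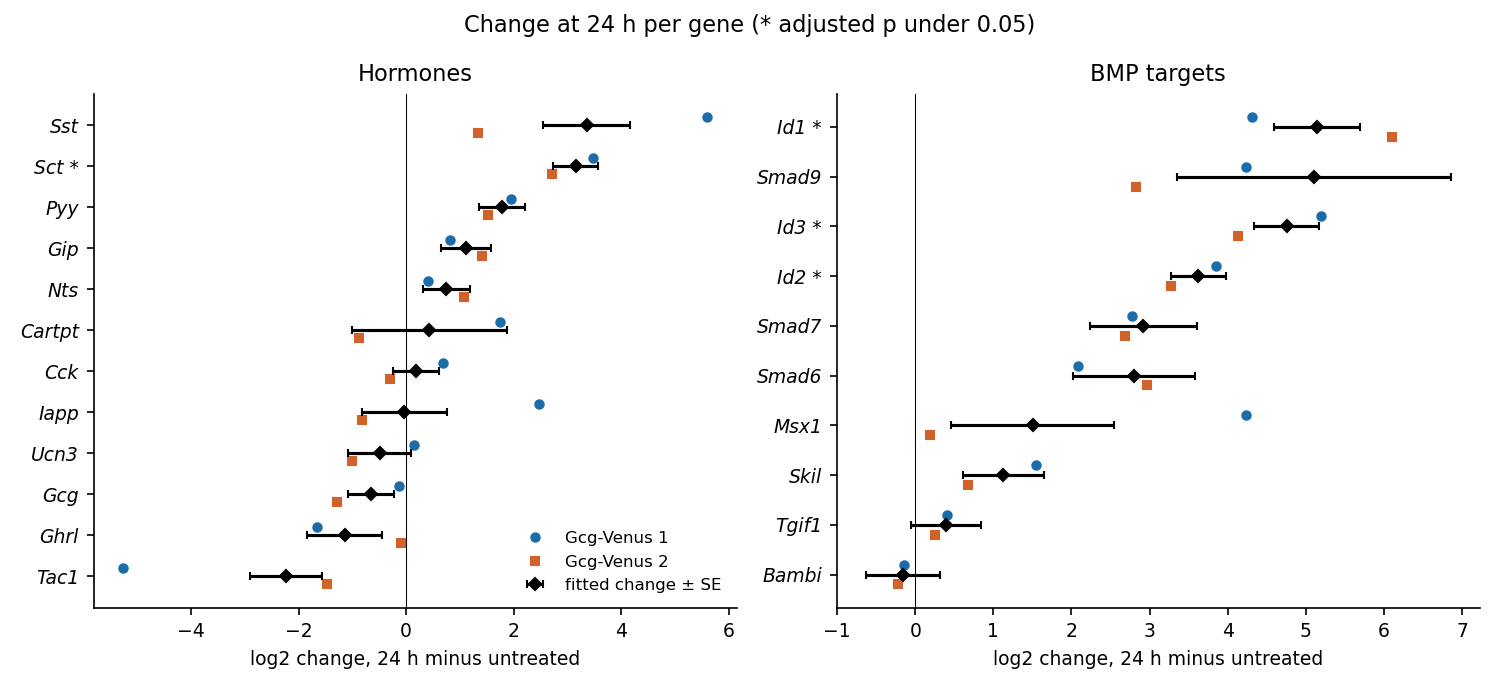
Fitted log2 change from untreated to 24 h (filled symbols, bars ± SE) for the tested hormone and BMP target genes, with the change on each of the 2 Gcg plates as small points. The Id genes at 3.62 to 5.15 and Sct at 3.15 are the called ones; Gcg lies at -0.65 and Cck at 0.18, and Smad9 rests on untreated counts of 0.

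More hormones were counted per cell at 24 h, among Gcg, Cck, Nts, Gip, Sst, Ghrl, Pyy and Sct. The mean number of these with at least 5 transcripts per 2000 was 2.48 untreated and 3.70 at 24 h on plate 1. On plate 2 it was 2.88 and 3.30. Sct is itself among the hormones counted, so its rise is part of this number. Among cells with at least 5 Gcg transcripts, 15 of 46 (32.6%) untreated and 40 of 47 (85.1%) 24 h cells of plate 1 also had at least 5 Sct transcripts. On plate 2 these were 20 of 71 (28.2%) and 41 of 73 (56.2%). Of the cells below 5 Gcg transcripts, 2 of 18 untreated and 14 of 22 24 h cells of plate 1, and 0 of 4 and 4 of 10 of plate 2, had at least 5 Sct transcripts.

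Each cell was also described by its leading hormone, the highest of Gcg, Cck, Nts, Gip, Sst, Ghrl, Pyy and Sct with at least 10 of 2000 transcripts. Gcg led in 26 of 64 untreated cells of plate 1 (40.6%, 95% Wilson interval 29.5% to 52.9%) and in 14 of 69 at 24 h (20.3%, 12.5% to 31.2%). On plate 2 it led in 47 of 75 (62.7%, 51.4% to 72.7%) and in 24 of 83 (28.9%, 20.3% to 39.4%). Cck led in 4 and 7 untreated cells and in 17 and 14 at 24 h. Sct led in 0 untreated cells of either plate, which allows up to 4.69% and 4.00% (3 counts of the total, here cells), and in 5 cells of each plate at 24 h. No hormone reached the minimum in 20 and 9 untreated cells and in 7 and 12 cells at 24 h. Such a class moves whenever 1 of its hormones changes. In 5 to 7 cells of each sum the leading hormone was ahead by fewer than 10 transcripts, and in 3 to 9 cells the highest hormone had 5 to 9. No test of these shares was made, for the reason given for the Id genes.

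Levels of several genes were also summed by class of cell, where class was set by Gcg, Cck, Nts, Gip, Sst or Ghrl alone so that Sct and Pyy did not define it. In Gcg-led cells Sct was at 2099 and 2238 CPM untreated and 7406 and 6500 CPM at 24 h. In Nts-led cells it was at 2780 and 1657 CPM untreated and 30957 and 26437 CPM at 24 h, with 9 and 7 such cells untreated and 17 and 14 at 24 h. Cck-led cells stood at 23735 and 28836 CPM at 24 h, and at 3256 CPM in the 7 untreated ones of plate 2 (plate 1 had under 5), and Gip-led cells at 24 h at 13715 and 15931 CPM. In cells with no leading hormone Sct was at 182 and 106 CPM untreated and at 298 and 166 CPM at 24 h, so the lowest levels were in these cells under both conditions. Id2 in Gcg-led cells went from 67 and 62.1 to 679 and 511 CPM. In cells with no leading hormone it went from 19.6 and 10.6 to 52.6 and 120 CPM, from 7, 1, 3 and 31 transcripts. In the latter cells Id3 went from 4 and 0 transcripts to 1 and 49, and Id1 from 3 and 0 to 0 and 37. On plate 2 at 24 h these were 190 and 143 CPM, beside 78.4 and 144 CPM in Gcg-led cells. Nt5e in Nts-led cells was at 40.1 and 37.2 CPM untreated, from 4 and 2 transcripts, and at 443 and 464 CPM at 24 h. In Gcg-led cells it was at 7.06 and 12.4 CPM untreated, from 2 and 5 transcripts, and at 44.9 and 30.3 CPM at 24 h. Dnaja4 in Gcg-led cells had 1 and 2 transcripts untreated and 6 and 3 at 24 h. In Nts-led cells it had 4 and 0 untreated and 29 and 48 at 24 h. Sstr1 in Nts-led cells went from 30.1 and 112 to 99.2 and 146 CPM, and in Gcg-led cells from 0 and 0 to 4 and 11 transcripts. Fam101a in Gcg-led cells went from 1 and 2 to 12 and 17 transcripts. Pyy was at 30038 and 15748 CPM in Nts-led cells at 24 h, after 4315 and 4672 CPM untreated. In Gcg-led cells Pyy differed in direction between plates, from 10187 to 8309 CPM on plate 1 and from 7144 to 17593 CPM on plate 2. Dlk1 was at 3049 and 476 CPM in Gip-led cells at 24 h. These values are sums over the cells of a class and carry no test.

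**Figure D4:**
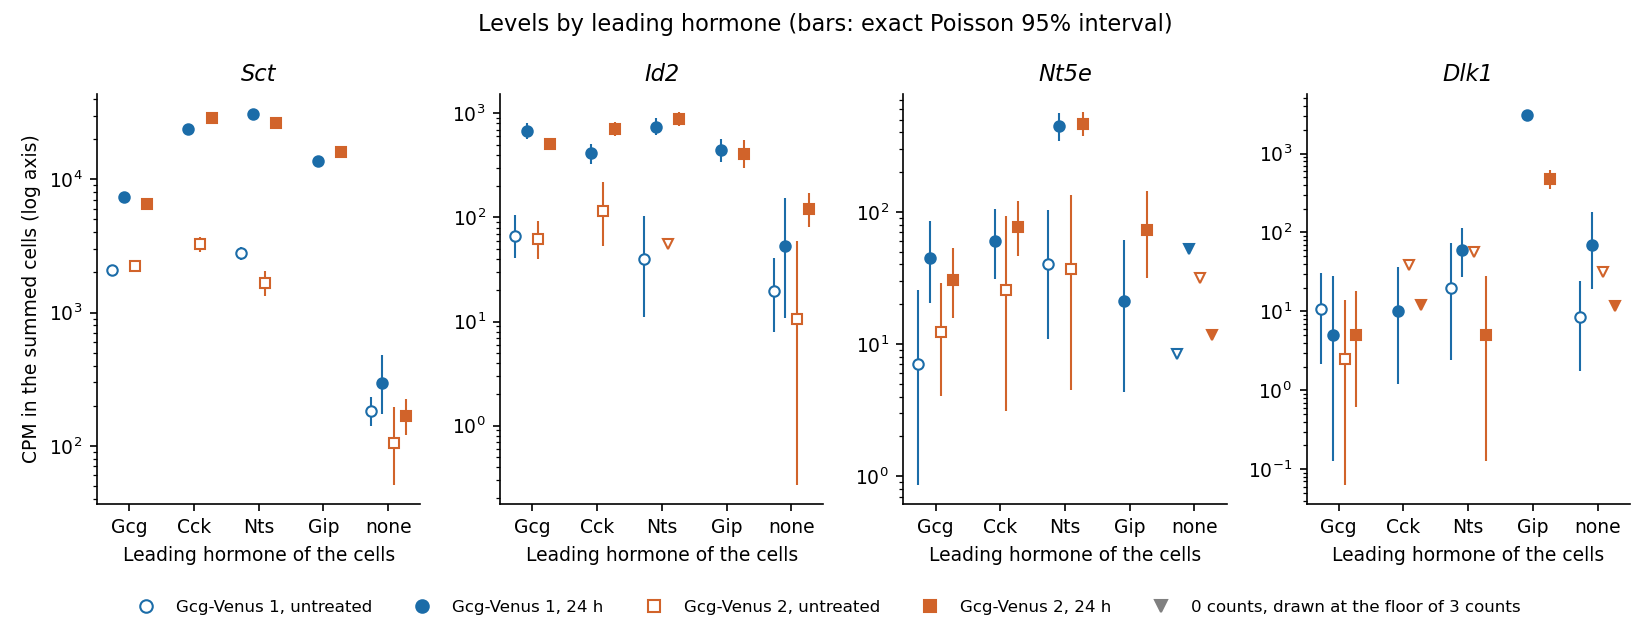
Levels in CPM of Sct, Id2, Nt5e and Dlk1 by leading hormone of the cell (classes with at least 5 cells), untreated and 24 h, on each Gcg plate; bars are Poisson 95% intervals, which cover counting error only. Sct at 24 h is at 30957 and 26437 CPM in Nts-led cells and at 298 and 166 CPM in cells with no leading hormone.

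Programmes of endocrine identity held no called gene. Of 23 enteroendocrine transcription factors 22 were tested and 0 called (median 0.23). Neurod1, which acts late in endocrine differentiation, was at 935 and 1519 CPM untreated and 2671 and 2039 CPM at 24 h (1.02 ± 0.35). Hhex, a factor of somatostatin cells, had 0 and 8 transcripts untreated and 11 and 37 at 24 h (2.16 ± 0.70). Lmx1a, a factor of enterochromaffin cells, had 4 and 4 transcripts untreated and 0 and 1 at 24 h. Of 22 secretory granule genes 0 were called (median 0.16), and Pcsk1n, which encodes the granin proSAAS, went from 42.2 and 117 to 276 and 203 CPM (1.72 ± 0.41, edgeR adjusted p = 0.86). Resp18 stood at 1.17 ± 0.37 and Syt7, a calcium sensor of exocytosis, at 0.90 ± 0.47. The 8 serotonin genes had a median of 0.02 and 0 calls, and Tph1, the rate-limiting enzyme of serotonin synthesis, went from 30 and 13 transcripts to 5 and 10. Electrical excitability genes, 9 tested of 12, had 0 calls and a median of 0.06, with the calcium channel gene Cacna1c at 1.29 ± 0.41.

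Goblet genes were the lowest of the larger lists, although none passed. All 8 were tested, 7 had an estimate below 0 and 6 were lower on both plates, with a median of -1.20. Over all 10733 genes 4990 had an estimate below 0 and 2482 were lower on both plates. Muc2, the main mucin of intestinal mucus, was at 1240 and 358 CPM untreated and 256 and 120 CPM at 24 h (-1.91 ± 0.34, edgeR adjusted p = 0.15), and it was the 1 lower gene called by DESeq2. Its direction turned when cells with over 10% of non-endocrine marker transcripts were left out (0.89), which removed 4 and 3 untreated cells and 2 and 1 cells at 24 h, and 84.2% of its untreated total on plate 1 was in 3 cells. Zg16, a lectin of goblet granules, went from 3863 and 550 to 1080 and 346 CPM and Spink4 from 406 and 290 to 217 and 83.3 CPM. Clca1, another goblet gene, went the other way, from 25.8 and 0 to 89.8 and 31.6 CPM. The part of the non-endocrine cells in these values was not tested beyond that omission.

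The 17 enterocyte genes had a median of -0.23 and 0 calls, with plate medians of -1.90 and 0.66 that differ in sign. Tuft genes, 4 tested of 8, had a median of -2.52 and Paneth genes, 3 tested of 6, of -1.46, or -0.39 with Mmp7 at the bound of its 0 counts. These few genes were at 1 to 67 transcripts or 0 in each sum, with 0 calls. Crypt and stem cell genes, 6 tested of 8, had a median of -0.20, with Slc12a2 at -2.11 ± 0.61, and proliferation genes, 7 of 10, of 0.03. Olfm4, a stem cell marker, was at 0 in every sum. The unfolded protein response, 16 genes, stood at -0.18, cholesterol synthesis, 11 of 12, at -0.19, interferon and antigen presentation, 9 of 12, at 0.30, immediate early and heat shock genes, 10 of 12, at -0.09 and nuclear RNAs, 4 genes, at -0.03. None of these lists held a called gene. Among lower genes whose mean log2 CPM was 5 or more, others with a small unadjusted p were Arc, an immediate early gene, at -1.33 ± 0.37, Eif4ebp1, an inhibitor of cap-dependent translation, at -1.69 ± 0.48, Nupr1, a stress-induced nuclear protein, at -2.02 ± 0.59, and Asns, asparagine synthetase, at -1.36 ± 0.40, each with an edgeR adjusted p of 1.0.

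The 24 h changes were set against those of the Tac1 and Gip lines in the same fit, where each of these lines has 1 plate with enough 24 h cells. No difference passed: 0 genes higher and 0 lower in Gcg minus Tac1 (0%) and 0 and 0 in Gcg minus Gip (0%), with 196 and 131 genes at an unadjusted p under 0.05 in edgeR. DESeq2 called 0 in the first and 1, Dlk1, in the second. The log2 change of Sct was 3.08 in the Tac1 line and 3.79 in the Gip line, so that the Gcg line differed by 0.07 ± 0.66 and -0.64 ± 0.68. The differences of Id2 were -0.32 ± 0.58 and 0.76 ± 0.57, those of Id3 1.06 ± 0.64 and 0.04 ± 0.50, those of Id1 0.51 ± 0.85 and 0.86 ± 1.12, and those of Tbx3 0.03 ± 1.01 and -0.28 ± 0.78. Even differences of several times their SE did not pass, as the values that follow show. The 0 calls therefore cannot show that the lines change alike.

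Larger differences were estimated for Nt5e and Dnaja4, without passing. Nt5e changed by 0.27 in the Tac1 line and 0.57 in the Gip line, a difference from the Gcg line of 2.84 ± 0.68 and 2.54 ± 0.74. Dnaja4 differed by 3.02 ± 0.71 and 2.50 ± 0.77, and Sstr1 by 1.03 ± 0.71 and 1.41 ± 0.80. Pyy differed in the other direction, by -3.51 ± 0.90 and -3.52 ± 0.77. Dlk1 differed by 2.78 ± 0.72 and 5.35 ± 0.67 (edgeR adjusted p = 1.0 and 0.058). On the Gip plate Dlk1 was at 928 CPM untreated and 959 CPM at 24 h, and 400 of its 505 untreated transcripts were in 3 cells, 0 of them Gip-led. Fam101a was at 0 CPM in both sums of Tac1-Cre 1 and at 0 and 10.3 CPM on the Gip plate.

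Most of the called genes stayed high at 4 days, for which the plates held 95 and 24 cells. The comparison of 4 days with 24 h shares the 24 h sums with the one above. It gave 5 higher genes (0.0466%) and 6 lower genes (0.0559%) at an edgeR adjusted p under 0.05. Sct was at 15867 and 32251 CPM at 4 days (0.68 ± 0.39 relative to 24 h), Id2 at 384 and 755 CPM, Id3 at 203 and 250 CPM and Id1 at 193 and 186 CPM. Nt5e stood at 139 and 221 CPM, Tbx3 at 240.5 and 296 CPM, Fam101a at 106 and 139 CPM and Dnaja4 at 93.5 and 75.5 CPM. Sstr1, at 108 and 209 CPM, was 1.66 ± 0.36 above 24 h without passing (adjusted p = 0.27). Dlk1 fell by 4.76 ± 0.49 to 18.4 and 0 CPM. Gcg fell by 3.46 ± 0.48 (adjusted p = 0.028), in contrast to its 24 h estimate of -0.65, and Gip and Sst, which rested on few cells at 24 h, fell by 3.10 and 5.00. The other lower genes were Alpl and Asic5. The higher genes were the goblet genes Clca1, Fcgbp, Muc2 and Zg16 and the calcium-binding gene S100a6. Goblet markers made up 2.47% and 1.60% of transcripts at 4 days, against 0.48% and 0.21% at 24 h, and their part in these calls was not tested. Without the plate as a block, 0 genes passed in either direction.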

How the data were processed

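Single cells were sorted by reporter and sequenced by SORT-seq, a plate form of CEL-seq2 (NextSeq500, paired ends, per the labels' protocols). The submitters' processing notes name BWA 0.6.2-r126 and mm10. The deposited values are the authors' expected counts, estimated transcripts per gene and well. Their values return whole identifier numbers within 0.01 for 4096 possible identifiers, while the labels state a shorter identifier, so the correction used is inferred from the values. Of 19754 genes listed in the Gcg and Gip files together, the 16115 also listed in any Tac1 file were used. A gene missing from the file of a plate was set to 0 there. Genes outside the 16115 held 2.05% and 1.85% of transcripts on Gcg plates 1 and 2, and 1.33% to 2.05% over all 8 plates.

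Kept wells were summed per plate and condition, giving 14 sums of at least 10 cells on 5 plates, and rounded. edgeR 4.0.16 in R 4.3.3 (filterByExpr, TMM, quasi-likelihood test) was fitted with plate as a block and condition within reporter line, and p-values were adjusted by Benjamini-Hochberg over all tested genes. The SE is the log2 change divided by the square root of F. All lines share 1 estimate of spread because 2 Gcg plates leave too few degrees of freedom. Untreated and treated cells lie on the same plate, which pairs them by design. The correlation of residuals was -0.22 between untreated and 24 h sums of the same plate and 0.22 between untreated and 4 day sums. Between 24 h and 4 day sums it was -0.30. Doublets were not called in these plates of sorted cells, and all plates share the same 384 well numbers. Shares of cells used cells thinned to 2000 transcripts, and 1 cell of plate 1 fell below this over the common genes. DESeq2 1.42.0, other filters, thinning, cell cut-offs and leaving out each plate were alternatives. Named genes were the largest called changes, filled by smallest p to 8 per direction where few were called, all tested hormones and BMP targets, and up to 4 per other list. The 20 gene lists and the groups compared were chosen with earlier results of these data known. Scripts were tested on simulated data.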

Additional observations from a re-analysis of the deposited data

Results flagged for a closer look

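Sct was also higher at 24 h in the wells that the minimum of 2000 transcripts left out, which enter none of the comparisons above. On plate 1 the 26 left-out wells of the 24 h columns held 409 Sct transcripts among 19596, or 20871.5 CPM (Poisson 95% interval 18897.5 to 22995.6). The 32 left-out untreated wells of that plate stood at 2935 CPM, from 46 transcripts. On plate 2 the 13 left-out 24 h wells were at 27477.3 CPM, from 263 transcripts, and the 21 untreated ones at 3428 CPM (2426 to 4706), from 38. These levels are above those of the untreated wells, and also above the 16848 and 13555 CPM of the kept 24 h cells of the same plates. Of the other called genes, Id2 at 24 h was above its untreated level on plate 2 (11 against 1 transcripts), while none of the others was above it on either plate by their counting intervals, for example Id3 with 2 and 2 transcripts on plate 1 and 0 and 0 on plate 2. The wells hold few transcripts each, and what they contain was not tested. The intervals cover counting error only, and the difference itself was not tested.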

How the results depend on the processing

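The count of 10 higher genes at 24 h became 19 with no filter on low counts, 2 with the 6 Gcg sums alone (Dlk1 and Id3, also 2 with all genes of the Gcg files), 0 with the 4 untreated and 24 h Gcg sums, 4 with a minimum of 5000 transcripts per cell, 32 without cells of over 2% non-endocrine marker transcripts, and 4 to 28 when a plate was left out. The count of 0 lower genes became 1 with DESeq2 and with a minimum of 1000 transcripts, 3 with no filter, 6 after thinning, 28 without cells of over 2% and 0 to 127 when a plate was left out. The fit with no replicate block gave 9 higher and 0 lower genes, having lost Dlk1. After each cell was thinned to 2000 transcripts, 10 genes were higher, but only 6 of them were among the 10 of the main fit. Nt5e, Sstr1, Fam101a and Dnaja4 were not called there. The Gcg minus Tac1 difference gave 5 higher and 2 lower genes with no filter and 0 to 6 and 0 to 18 when a plate was left out. The Gcg minus Gip difference gave 1 higher gene with DESeq2 or its size factors, 5 and 1 with no filter and 0 to 6 and 0 to 21 when a plate was left out. The 4 day against 24 h comparison gave 8 and 10 genes with DESeq2, 50 and 31 with no filter, 0 and 0 with no replicate block, and 0 to 287 higher and 0 to 44 lower when a plate was left out. The median of the BMP targets was 2.38 after thinning, 3.91 without cells of over 2% and 2.80 to 3.30 when a plate was left out. The difference in the Sct share was 9.95 points at 1 transcript, 17.8 at 5 of 5000 and 27.6 to 51.7 within a single plate. Signs turned for Muc2 (0.42 without cells of over 2%, 0.89 without those of over 10%), Slc12a2 (1.75 without cells of over 2%) and Zg16 (2.02 without those of over 10%), the last cut-off having been chosen after seeing the data. The cause was not tested. With 2 Gcg plates and untreated counts of 1 to 12 for 7 of the called genes, the depth limits how closely their fold changes are known.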

Other observations

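A set of 24 genes that the transcription factor Atf4 is known to drive, which act in amino acid synthesis, transport and tRNA charging or in stress signalling (for example Nupr1, Trib3, Sesn2 and Ddit3), was put together after some of their values had been seen, so its direction is a description and not a test. Of these 22 were tested, 20 had an estimate below 0 and 17 were lower at 24 h on both Gcg plates, beside 4990 and 2482 of all 10733 genes. Their median log2 change was -0.93, beside 0.03 for all genes, and 10 were lower at an unadjusted p under 0.05 in edgeR, as were 66 of all genes, while 0 passed after adjustment. Slc1a4, a transporter of neutral amino acids, went from 25.8 and 14.9 CPM untreated to 1.30 and 2.43 CPM at 24 h (-3.14 ± 0.89). Asns went from 167.5 and 190 CPM to 69 and 66.3 CPM and Eif4ebp1 from 65.6 and 96.6 CPM to 14.3 and 34 CPM. Cars, which charges the tRNA of cysteine, stood at -2.01 ± 0.61 and Slc7a5, a subunit of a large neutral amino acid transporter, at -1.43 ± 0.53. For these 5 genes, each with an unadjusted p under 0.05 in edgeR, both 24 h sums were below both untreated sums. The share of all tested genes with such separation was not counted. Atf4 itself was at 439 and 528 CPM untreated and 367 and 354 CPM at 24 h (-0.39 ± 0.33), and Ddit3 (0.36 ± 0.63) and Sesn2 (0.71 ± 1.21) had estimates above 0. At 4 days the median of the set relative to untreated was -0.70.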
